A study of Homo sapiens with 3 samples.

Results

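The transcripts of 45 heat shock proteins, cytosolic and mitochondrial chaperones, co-chaperones and heat shock factors were followed in NCI-H23 cells after knockdown of USP16. The 45 genes were chosen by name, as a fixed list of symbols, and each symbol matched exactly 1 of the 50868 gene rows. NCI-H23 is an established human lung adenocarcinoma cell line, and USP16 encodes a deubiquitinase that acts on histone H2A. There were 3 RNA libraries, all from this 1 line: 1 from cells that received control siRNA and 2 from cells that received siRNA against USP16. The knockdown libraries are called 1 and 2 after their titles, and the labels do not say whether they stem from different siRNAs or different cultures. A p-value here therefore reflects how far these few samples lie apart, which may be technical. Neither the siRNA sequences nor the time after transfection are in the labels.

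Chaperones bind unfolded or partly folded proteins and keep them from aggregating while they fold. HSP70 takes up short hydrophobic stretches in a cycle driven by ATP, which J-domain proteins start and nucleotide exchange factors such as BAG proteins and HSP110 complete. Clients that need further maturation, many kinases and steroid receptors among them, pass to HSP90 with the help of co-chaperones, whereas actin and tubulin are handed by prefoldin to the ring-shaped chaperonin CCT. In mitochondria the same work is done by relatives of HSP70, HSP90 and the bacterial chaperonin. The factor HSF1 switches on many of these genes through heat shock elements, which are inverted repeats of a short GAA unit in their promoters.

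The promoter windows of the members in RefSeq (build GRCh38.p14) were searched for a complete heat shock element of 3 units, because the genes share this known control. A window ran from 250 bases before to 50 bases after an annotated start. The motif was GAANNTTCNNGAA, which on the other strand reads TTCNNGAANNTTC, so both strands were covered, and neighbouring matches can overlap. It lay in 172 of all 35116 windows (0.490%) and in 7 of the 56 windows of members (12.5%). By gene it was found in 166 of 27305 genes (0.608%) and in 7 of the 40 members with a window (17.5%). FKBP4, ST13, HSF1, CCT6A and PFDN2 had no window in the table. The 7 genes were HSP90AA1, HSP90AB1, HSPA8, CHORDC1, DNAJA1, DNAJB6 and HSPD1. The match in DNAJA1 lay after the start and is not printed. The other matches follow 5′ to 3′ on the strand of the gene, with the element in capitals. They are shown because this known control element is shared by genes with unlike values here. HSP90AA1, HSP90AB1, HSPD1 and DNAJB6 were higher than the control in both knockdown libraries, as was DNAJA1 (log2 changes 0.43 and 0.06). HSPA8 and CHORDC1 had the control in between.
HSP90AA1: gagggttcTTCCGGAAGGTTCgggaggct
HSP90AB1, first: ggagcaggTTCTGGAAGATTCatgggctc
HSP90AB1, second: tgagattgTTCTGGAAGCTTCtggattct
HSPA8, first: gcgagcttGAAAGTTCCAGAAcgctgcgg
HSPA8, second: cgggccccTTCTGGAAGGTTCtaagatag
CHORDC1: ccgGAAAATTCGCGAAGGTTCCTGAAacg
DNAJB6: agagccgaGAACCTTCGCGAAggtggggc
HSPD1: gcattTTCTGGAAAGTTCTGGAAccgag

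The stretch of HSP90AA1 is chr14:102087112-102087140 on the minus strand, with the element 88 to 76 bases before the start. Those of HSP90AB1 are chr6:44247770-44247798 and chr6:44247823-44247851 on the plus strand. Those of HSPA8 are chr11:123062346-123062374 and chr11:123062171-123062199 on the minus strand. CHORDC1 has 3 overlapping matches in chr11:90223084-90223112 on the minus strand, and HSPD1 has 2 in chr2:197500063-197500090, also on the minus strand. The stretch of DNAJB6 is chr7:157336865-157336893 on the plus strand. The stretches of HSP90AA1, HSPA8, CHORDC1 and HSPD1 also overlap an exon of at least 1 transcript in GENCODE release 29. That of HSPD1 overlaps exons of both HSPD1 and its neighbour HSPE1, so it does not belong to HSPD1 alone, although the window of HSPE1 held no match. A match is a description of the letters and was not tested as a binding site. The windows of HSPA1A, HSPA1B, DNAJB1 and HSPH1 held no match, which says only that these letters are not in them.

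The libraries held 14007161 counts under control siRNA and 13956382 and 15071179 after knockdown. USP16 had 632 counts in control cells, then 109 and 245 after knockdown, and its scaled level was 83.8% and 66.8% lower than in the control (edgeR, adjusted p = 0.561). Of 9 epithelial and lung markers, KRT8 and KRT18 were well detected, with 1118 to 2214 and 1986 to 3364 counts, whereas the lung markers NKX2-1 (4 to 10 counts) and SFTPB (0 counts in all 3) were nearly or wholly absent. The 9 markers together took 411 CPM under control siRNA and 240 and 366 after knockdown. The leukocyte marker PTPRC had 0, 0 and 1 counts and the endothelial marker PECAM1 had 0, 1 and 0. Of the 7 epithelial and lung markers that passed the filter, 6 had the control highest, while EPCAM had 38, 161 and 232 counts. Of 4 mesenchymal markers, VIM had 20066, 19284 and 7957 counts and was lowest in library 2. The others did not share this fall: ZEB1 had 179, 209 and 346 counts, FN1 had 230, 234 and 314, and CDH2 had 10, 23 and 10. Transcripts of the mitochondrial genome took 8.56% of counts under control siRNA and 7.41% and 7.33% after knockdown, and the part of the marker and mitochondrial differences in the results below was not tested.

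All 45 chaperone genes passed the filter on low counts, with a mean of at least 186 counts, and 27 lay among the top 10% of genes by control level. None passed an adjusted p of 0.05 in the knockdown against the control (edgeR quasi-likelihood test over 17287 genes), where 3 genes of all tested did (0.0174%). An unadjusted p under 0.05 was reached by 3 members, HSP90AA1, HSPD1 and DNAJB4, or 6.67% of the list, against 4.88% of all genes. DESeq2 called 0 members as well, with 2 at an unadjusted p under 0.05. The fit had 1 residual degree of freedom, from 3 libraries in 2 groups. Use of strand in the counting is not given, and 20 members overlap a counted gene on the other strand, so reads of such pairs cannot be told apart. In bulk RNA, fewer cells of a type and less RNA per cell cannot be told apart.

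By position alone, the control was the lowest of the 3 libraries for 19 members, the highest for 11 and in between for 15. Over all genes tested the control was lowest for 33.4% and highest for 33.5%, against 42.2% and 24.4% of the members. The median log2 change over the members was 0.06 in knockdown library 1 and 0.20 in library 2, and that of the mean change was 0.10, against -0.02 over all genes tested. A change is a difference in log2 CPM (counts relative to the TMM-scaled library size; prior count 2), and both libraries are set against the same control. The members HSP90AA1, HSPD1 and DNAJB4 were at least 1.5-fold higher in both knockdown libraries (3 of 45, or 6.67%), and 0 were 1.5-fold lower in both. The shares of all genes were 9.52% and 6.21%, so neither share lay above that of all genes. All 45 members averaged 100 counts or more, and among the 11236 genes that did so the control was lowest for 29.7% and highest for 36.6%, with 5.02% being 1.5-fold above it in both and 5.13% below it by that much. No member was 2-fold higher or 2-fold lower in both, against 3.75% and 1.68% of all genes. Between the 2 knockdown libraries, 6 members differed by at least 1.5-fold (13.3%), namely CDC37, ST13, CHORDC1, BAG3, HSPB8 and TCP1, as did 36.5% of all genes tested and 29.4% of those 11236 genes.

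**Figure D1:**
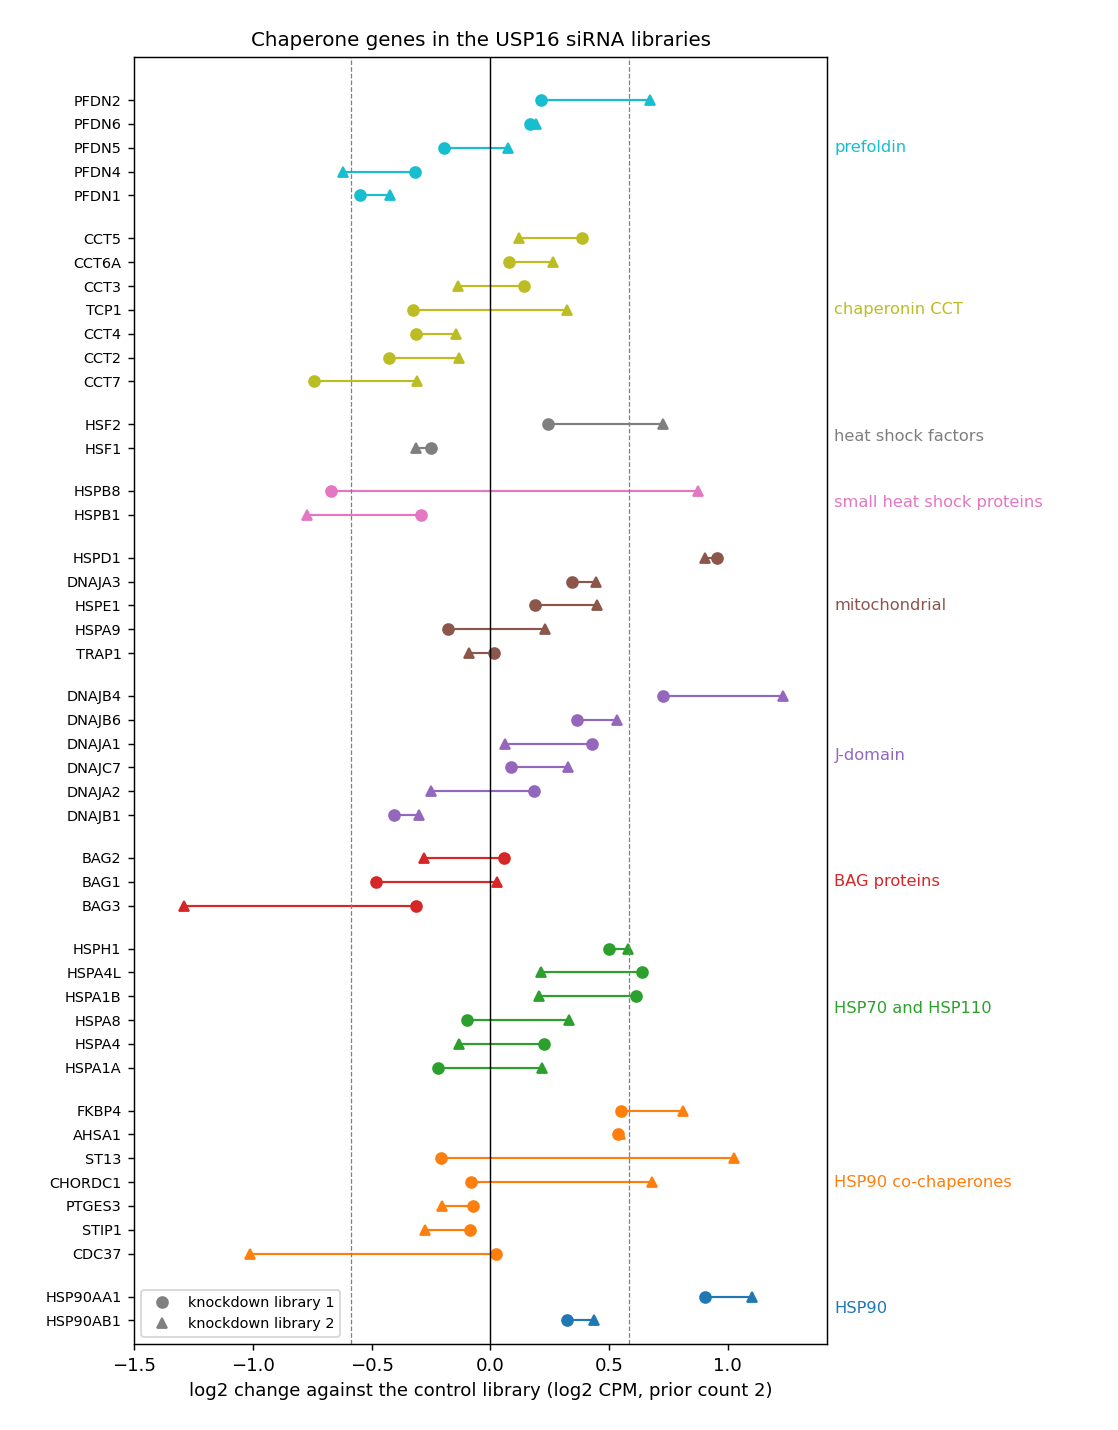
Log2 change of each of the 45 genes against the control library (x axis, log2 CPM with a prior count of 2) in knockdown library 1 (circles) and 2 (triangles), grouped by role, with dashed lines at 1.5-fold. HSP90AA1, HSPD1 and DNAJB4 have both points right of the 1.5-fold line, and no gene has both points left of the other line.

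**Figure D2:**
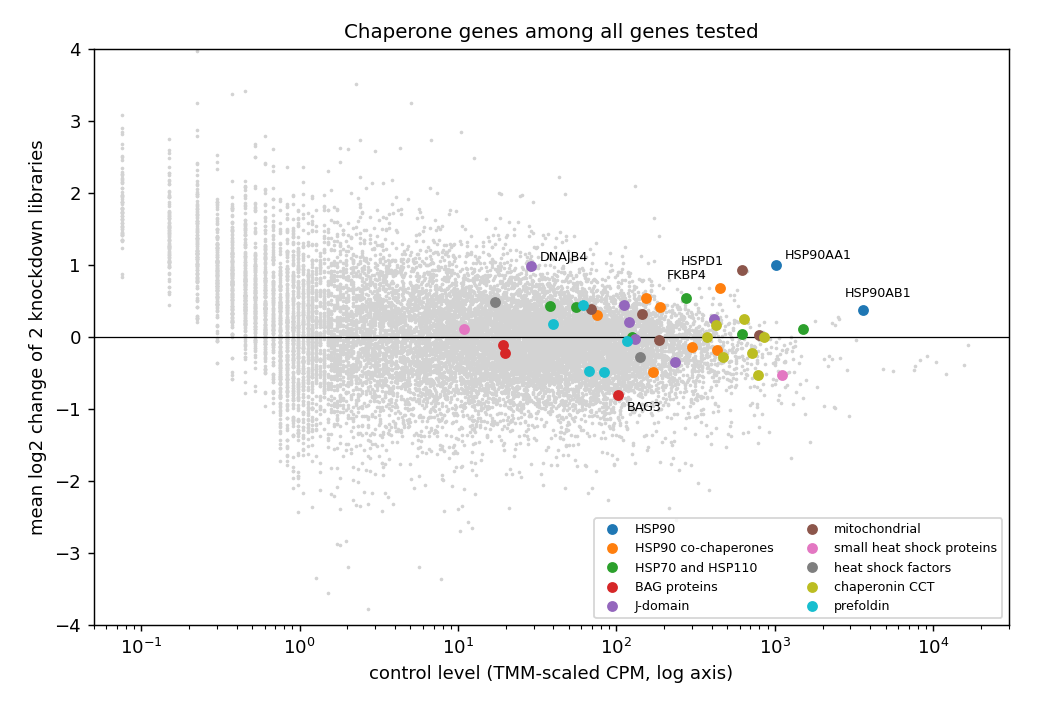
Mean log2 change of the 2 knockdown libraries (y axis) against the control level in CPM (x axis, log scale) for the genes tested (grey, 17220 inside the axes and 67 outside) and the 45 chaperone genes (coloured by group). HSP90AA1, HSPD1 and DNAJB4 are the highest of the chaperone genes, at 1.00, 0.93 and 0.98, and BAG3 is the lowest, at -0.80.

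Of the 10 groups, HSP90 had the highest median of the mean change, at 0.69. HSP90AA1, the stress-inducible cytosolic isoform, had 13521 counts under control siRNA and 26946 and 33935 after knockdown. Its scaled level was 1016 CPM under control siRNA (95% exact Poisson limits 998 to 1033), 1901 in the first knockdown library (1879 to 1924) and 2182 after the second (2159 to 2205). Both knockdown libraries were high and the control low, by 0.90 and 1.10 on the log2 scale, with a mean of 1.00 ± 0.14 (SD, n = 2). The SD leaves out the error of the shared control, and the edgeR estimate was 1.01 with an SE of 0.35 (adjusted p = 0.961, unadjusted p = 0.0133). Without a filter on low counts its adjusted p was 0.424, and over all settings run it ranged from 0.424 to 0.9996. The pseudogene HSP90AA2P, whose sequence resembles that of HSP90AA1, had 246, 525 and 598 counts, so reads could be split between them.

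HSP90AB1, the constitutive isoform and the most abundant member, had 48045 counts in control cells, then 63913 and 75976 after knockdown. Here too the control was the lowest library, with log2 changes of 0.32 and 0.44 and a mean of 0.38 ± 0.08 (SD, n = 2), and edgeR gave an adjusted p of 0.999. Per transcript length, HSP90AB1 stood 6.26 times above HSP90AA1 in the control, and 4.18 and 3.94 times above it in knockdown libraries 1 and 2, as ratios of TPM (counts divided by exon length and scaled to the same sum in each library). In both libraries the change of the inducible isoform was larger than that of the constitutive one, and this difference was not tested. Together the pair took 0.440% of all counts under control siRNA and 0.651% and 0.729% after knockdown. HSP90AA1 lies on chromosome 14 at 102080738 to 102139699, and its annotated span overlaps WDR20 on the other strand, which had 277, 171 and 251 counts. HSP90AB1 lies on chromosome 6 at 44246166 to 44253888 and its span overlaps no other counted gene.

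A set of 7 co-chaperones serve HSP90 or link it to HSP70, and they were split. FKBP4, an immunophilin of the steroid receptor complex, had 6040 counts under control siRNA and 9418 and 12386 after knockdown (log2 changes 0.55 and 0.81, mean 0.68 ± 0.18, SD, n = 2). AHSA1, which stimulates the ATPase of HSP90, had 2038, 3152 and 3480 counts, with changes of 0.54 and 0.55. For these genes the control was below both knockdown libraries, with an adjusted p of 0.999 each (edgeR). The scaffold STIP1, which bridges HSP70 and HSP90, had 5738, 5761 and 5534 counts (-0.08 and -0.28), and the p23 protein gene PTGES3, whose product stabilises the closed HSP90 complex, had 3977, 4029 and 4037 (-0.07 and -0.20). Both sat slightly below the control on the TMM scale, but with library totals as the scale their first value turned positive, at 0.01 and 0.02.

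The remaining co-chaperones were uneven between the knockdown libraries, with the control in between. CDC37, which delivers kinases to HSP90, had 2274 counts in the control, 2461 in library 1 and 1318 in library 2 (0.02 and -1.01). ST13, which steadies the ADP-bound form of HSP70, had 2492, 2298 and 5931 counts (-0.21 and 1.03). CHORDC1, an HSP90-binding protein, had 1010, 1015 and 1895 counts (-0.08 and 0.68). In all 3 genes library 1 was closer to the control and library 2 stood apart, low for CDC37 and high for ST13 and CHORDC1. Pseudogenes of ST13 were also highest in library 2, with 210, 220 and 463 counts for ST13P6 and 99, 108 and 231 for ST13P5, and reads of the parent and its copies may be split between them.

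**Figure D3:**
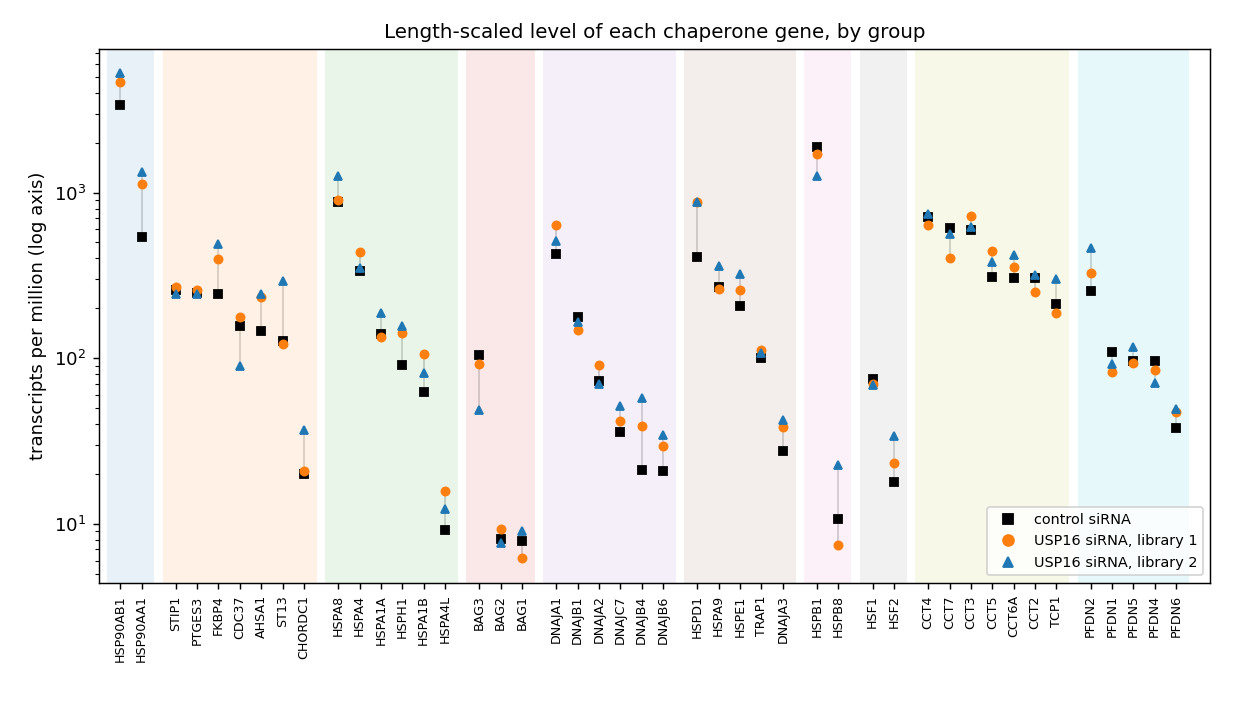
Level of each gene in TPM (y axis, log scale; counts divided by exon length and scaled to a common sum) in the control library (squares) and in knockdown libraries 1 (circles) and 2 (triangles). HSP90AB1 is the highest of the 45 genes in all 3 libraries, and the scale here differs from the TMM scale used for changes, so small differences can have another sign.

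The HSP70 and HSP110 genes had a median mean change of 0.26. HSPA8, the constitutive HSP70 and the most abundant of them, had 20095 counts in the control, 19972 in library 1 and 29541 in library 2 (log2 changes -0.10 and 0.33). The stress-inducible HSPA1A had 1662, 1519 and 2258 counts (-0.22 and 0.22), and its neighbour HSPA1B, which encodes nearly the same protein, had 744, 1215 and 1002 (0.62 and 0.20). HSPA1A and HSPA1B were therefore unlike in the order of libraries, but reads of near-identical copies may be assigned to either. Summed into 1 gene, they gave 0.09 and 0.21. Per length, HSPA1A stood 2.27, 1.27 and 2.29 times above HSPA1B in the control and the 2 knockdown libraries, while HSPA8 stood 6.19, 6.73 and 6.70 times above HSPA1A.

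Among the HSP110 exchange factors, HSPH1 had 3635 counts in control cells, then 5480 and 6359 after knockdown, with changes of 0.50 and 0.58 and a mean of 0.54 ± 0.06 (SD, n = 2; edgeR adjusted p = 0.999). HSPA4L had 508, 844 and 689 counts (0.64 and 0.21). For both the control was the lowest library. HSPA4, the third exchange factor of this kind, had 8233, 10256 and 8770 counts (0.23 and -0.13), with the control between the knockdown libraries. Over the 6 genes the control was lowest for 3 and between for 3.

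The BAG proteins, which release clients from HSP70, had the control highest for 1 gene and between for 2. BAG3, which directs clients to autophagy, had 1363 counts in the control, 1167 in library 1 and 649 in library 2, the lowest mean change among the members at -0.80 ± 0.69 (SD, n = 2; -0.31 and -1.29; edgeR adjusted p = 0.999). The control was above both knockdown libraries, and most of the difference sat in library 2. BAG1 had 263, 200 and 313 counts (-0.48 and 0.03), and BAG2, which inhibits the ubiquitin ligase CHIP, had 256, 284 and 246 (0.06 and -0.28). These 2 genes had the control between the libraries.

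J-domain proteins start the ATPase of HSP70 and choose its clients. DNAJB4 had 382 counts under control siRNA and 675 and 1051 after knockdown. Its scaled level was 28.7 CPM under control siRNA (95% exact Poisson limits 25.9 to 31.7), 47.6 in the first knockdown library (44.1 to 51.4) and 67.6 after the second (63.5 to 71.8). The changes were 0.73 and 1.23, with a mean of 0.98 ± 0.36 (SD, n = 2), and the edgeR estimate was 1.01 with an SE of 0.46 (adjusted p = 0.999, unadjusted p = 0.0488). DNAJB6, which holds back aggregation of polyglutamine proteins, had 1481, 2032 and 2506 counts (0.37 and 0.53; edgeR adjusted p = 0.999). DNAJA1, the abundant partner of HSPA8, had 5537, 7944 and 6751 (0.43 and 0.06), and DNAJC7, which binds HSP70 and HSP90, had 1591, 1802 and 2331 (0.09 and 0.33). For these 4 genes the control was the lowest library.

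DNAJB1, the partner of HSPA1A and a classic target of HSF1, stood on the other side. It had 3111 counts in control cells, then 2498 and 2950 after knockdown, with changes of -0.41 and -0.30 and a mean of -0.35 ± 0.07 (SD, n = 2). DNAJA2 had 1754, 2123 and 1723 counts (0.19 and -0.25), with the control in between. DNAJB4 and DNAJB1, which belong to the same class of J-domain proteins, lay on opposite sides of the control in both libraries. The span of DNAJB1 overlaps TECR on the other strand, which had 1048, 1055 and 1307 counts.

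The small heat shock proteins hold unfolding proteins without ATP. HSPB1, the abundant one here, had 14698 counts in the control, 12792 in library 1 and 10045 in library 2 (-0.29 and -0.77, mean -0.53 ± 0.34, SD, n = 2; edgeR adjusted p = 0.999), so the control was above both. HSPB8, which works with BAG3, had the fewest counts of the members on average, with 146, 97 and 315. It was below the control in library 1 and above it in library 2 (-0.67 and 0.88), the widest spread between the knockdown libraries of any member.

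The heat shock factors had opposite positions. HSF1, the main activator of the stress response, had 1881, 1685 and 1770 counts, with changes of -0.25 and -0.31. HSF2, a factor that can pair with HSF1, had 228 counts under control siRNA and 288 and 442 after knockdown, with changes of 0.24 and 0.73. Per length, HSF1 stood 4.20 times above HSF2 in the control and 2.98 and 2.04 times above it in knockdown libraries 1 and 2. HSF1 acts largely through modification of the protein, which RNA counts do not measure.

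Of the mitochondrial chaperones, HSPD1, which encodes the matrix chaperonin HSP60, had the largest difference. HSPD1 had 8253 counts in control cells, then 17042 and 18056 after knockdown. Its scaled level was 620 CPM under control siRNA (95% exact Poisson limits 607 to 633), 1202 in the first knockdown library (1184 to 1221) and 1161 after the second (1144 to 1178). The knockdown libraries lay close together and apart from the control, with changes of 0.96 and 0.91 and a mean of 0.93 ± 0.04 (SD, n = 2). The edgeR estimate was 0.93 with an SE of 0.36 (adjusted p = 0.999, unadjusted p = 0.0241), and over the settings run the adjusted p ranged from 0.650 to 0.9996. The pseudogene HSPD1P1 had 175, 399 and 434 counts. Summing the parent with all rows of its pseudogenes left the changes at 0.96 and 0.91.

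HSPE1, which encodes the HSP10 lid of the HSP60 ring, sits head to head with HSPD1 on chromosome 2, and had 1936, 2351 and 3091 counts. Its changes of 0.19 and 0.45 were below those of HSPD1 in both libraries, although the control was again the lowest. Per length, HSPD1 stood 1.99 times above HSPE1 in the control and 3.38 and 2.72 times above it in the knockdown libraries. The span of HSPD1, 197486581 to 197516737, covers that of HSPE1, 197499994 to 197503457, on the other strand, and the readthrough gene HSPE1-MOB4 had 96, 101 and 111 counts, so some reads cannot be assigned with certainty. DNAJA3, the J-domain partner of mitochondrial HSP70, had 920, 1243 and 1463 counts (0.34 and 0.44). HSPA9, the mitochondrial HSP70 itself, had 10570, 9954 and 14501 (-0.18 and 0.23), and TRAP1, the mitochondrial HSP90, had 2478, 2665 and 2717 (0.01 and -0.09). Of the 5 genes, 3 had the control lowest and 2 had it in between.

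**Figure D4:**
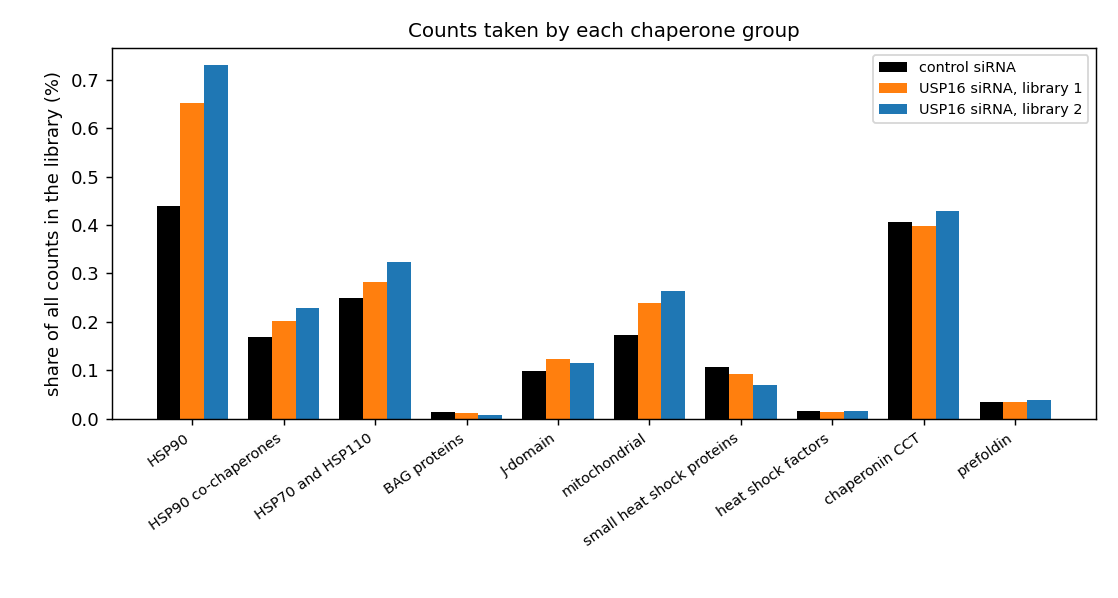
Share of all counts in a library (y axis, percent) taken by each chaperone group in the control (black) and in knockdown libraries 1 (orange) and 2 (blue). HSP90 took 0.440%, 0.651% and 0.729%, and chaperonin CCT 0.405%, 0.398% and 0.429%.

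The chaperonin CCT, a pair of stacked rings that folds actin and tubulin, was mixed by subunit. Its 7 listed subunits together took 0.405% of counts under control siRNA and 0.398% and 0.429% after knockdown. CCT7 had 10355 counts in the control, 6597 in library 1 and 9758 in library 2, with changes of -0.74 and -0.31 and a mean of -0.53 ± 0.30 (SD, n = 2; edgeR adjusted p = 0.999). CCT2 had 6261, 4959 and 6683 (-0.43 and -0.13) and CCT4 had 9613, 8235 and 10152 (-0.31 and -0.15), so that for these 3 the scaled control was the highest library. CCT5 had 8542, 11900 and 10857 counts (0.39 and 0.12) and CCT6A had 5672, 6374 and 7969 (0.08 and 0.27), with the control lowest. TCP1 had 4950, 4209 and 7234 (-0.32 and 0.32) and CCT3 had 11348, 13336 and 12063 (0.14 and -0.14), with the control in between. Each ring holds the subunits in equal numbers. The length-scaled transcript levels of the 7 spanned 3.38-fold in the control and 3.89-fold and 2.44-fold in the knockdown libraries.

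CCT8, the subunit outside the list, lies next to USP16 on chromosome 21, with 1316 bases between the annotated spans. CCT8 is on the minus strand, so the edge of its span nearer USP16 is where its transcript ends. CCT8 had 4915 counts under control siRNA and 4476 and 5958 after knockdown, with changes of -0.23 and 0.05. The scaled control was in between, unlike for USP16. CCT6B, the testis-enriched relative of CCT6A, had 28, 12 and 30 counts (-1.19 and -0.12).

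Prefoldin, the jellyfish-shaped complex that carries new actin and tubulin to CCT, was mixed as well. PFDN1 had 1114 counts in control cells, then 809 and 970 after knockdown (-0.55 and -0.42, mean -0.49 ± 0.09, SD, n = 2; edgeR adjusted p = 0.999), and PFDN4 had 897, 767 and 681 (-0.32 and -0.62). For both the control was the highest. PFDN2 had 818, 1011 and 1525 counts (0.21 and 0.67) and PFDN6 had 531, 636 and 709 (0.17 and 0.19), with the control lowest, and PFDN5 had 1554, 1445 and 1914 (-0.19 and 0.08). VBP1, the prefoldin subunit outside the list, had a larger mean difference from the control than any of them, with 1282, 272 and 628 counts and changes of -2.32 and -1.25 (edgeR, adjusted p = 0.797). PFDN2, PFDN1 and PFDN6 overlap NIT1, CYSTM1 and both RGL2 and WDR46 on the other strand.

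The other genes of the pathway were described from lists that hold no member, apart from the HSF1 targets. Over all genes tested, 33.4% had the control lowest, 33.5% had it highest and 9.52% were 1.5-fold higher in both knockdown libraries. The counts of each list stand beside these shares and were not tested against them. Of 27 further co-chaperones of HSP90 and HSP70, all tested, 12 had the control lowest and 9 had it highest, with a median mean change of 0.10, and 3 were 1.5-fold higher in both knockdown libraries. These were NUDC (1623, 3256 and 3426 counts, 0.91 and 0.85), TOMM34 (1423, 2402 and 2982, 0.66 and 0.84) and UNC45A (755, 1377 and 1413, 0.78 and 0.68). NUDC is a nuclear movement protein that works with HSP90, TOMM34 links HSP70 and HSP90 on the way to mitochondria, and UNC45A is a chaperone of myosin. None passed the threshold (edgeR, adjusted p = 0.999 each).

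Of 28 further J-domain genes, 26 were tested, 10 with the control lowest and 4 with it highest (33.4% and 33.5% of all genes tested). DNAJB5 had 245, 258 and 56 counts (-0.02 and -2.31) and DNAJA4 had 148, 593 and 145 (1.90 and -0.25), so for both genes 1 knockdown library lay much further from the control than the other. Of 15 further HSP70 and small heat shock genes, 9 were tested, 2 with the control lowest and 2 with it highest. The testis-enriched HSPA2 had 300, 171 and 239 counts (-0.89 and -0.55), HSPA13, an HSP70 relative of microsomes, had 910, 1079 and 1675 (0.16 and 0.65), and HSPA14, which works at the ribosome, had 1437, 1584 and 1163 (0.05 and -0.53).

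Of 16 further genes of mitochondrial protein quality, all tested, the control was lowest for 4 and highest for 8. For this list and the next, the shares of all genes tested were again 33.4% and 33.5%. LONP1, the ATP-dependent protease of the matrix, had 720 counts under control siRNA and 2263 and 1989 after knockdown (1.56 and 1.24, edgeR adjusted p = 0.825), and so lay on the same side as HSPD1. DNAJC19, a J-domain protein of the import motor, had 299, 404 and 494 (0.34 and 0.50), and DNAJC11, of the cristae-organising system, had 1579, 915 and 1429 (-0.88 and -0.37). Of 14 further chaperonin, prefoldin and tubulin cofactor genes, 2 had the control lowest and 5 had it highest; beside VBP1, PDRG1 had 749, 398 and 909 counts and PDCL3 had 318, 814 and 293 (1.26 and -0.34). Of 9 other heat shock factors and HSF1 partners, 7 were tested, and DAXX, a histone chaperone that binds HSF1, had 1290, 488 and 799 counts (-1.49 and -0.91, edgeR adjusted p = 0.984). HSBP1, a binding partner of HSF1, had 2623, 2348 and 2415 counts (-0.25 and -0.34), and HSF4 had 193, 188 and 320 (-0.13 and 0.50).

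A list of 26 known HSF1 targets, 8 of them outside the 45 members, had 25 tested genes, of which 0 passed the adjusted threshold. The control was lowest for 12, highest for 5 and in between for 8, and the medians of the changes were 0.19 and 0.22. Among the 7 tested targets outside the members the control was lowest for 1, highest for 1 and in between for 5, with a median mean change of -0.11. UBB, a polyubiquitin gene, had 8323, 6506 and 2064 counts (-0.45 and -2.23), and CACYBP, a calcyclin-binding protein gene, had 1326, 1684 and 1996 (0.25 and 0.37). DEDD2 had 304, 155 and 518 (-1.05 and 0.54). Within the members, the targets with the control lowest were HSP90AA1, HSP90AB1, HSPA1B, HSPA4L, HSPH1, DNAJA1, DNAJB4, HSPD1, HSPE1, AHSA1 and FKBP4. They are already counted among the members above. The control was highest for DNAJB1, BAG3, HSPB1 and STIP1, and in between for HSPA1A, HSPA8 and CHORDC1, as given above.

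All members together took 1.70% of counts in the control (95% interval by Wilson's method from 1.70 to 1.71), 2.04% in the first knockdown library (2.04 to 2.05) and 2.22% after the second (2.21 to 2.23). Without the HSP90 pair the shares were 1.26%, 1.39% and 1.49%. These intervals and the Poisson intervals cover counting error only. The shares are fractions of the raw totals, and that scale lies 0.10 above the TMM scale in the median log2 change of all genes. On the scale of library totals the median over the members was 0.21, with all genes at 0.09.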

How the data were processed

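RNA of NCI-H23 cells was sequenced in 1 control siRNA library and 2 USP16 siRNA libraries. The authors deposited whole-number counts of reads per gene. The submitters' processing notes list HISAT2 2.0.4, StringTie 1.3.0 and build hg38, with no role for either tool. How reads were counted, with or without strand, and against which annotation is not given in the sources used here. The second knockdown column has 6 in its header where the title has 2, and the file is recorded under that sample.

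Genes were filtered with filterByExpr (17287 left), scaled by TMM and tested with edgeR 4.0.16 (glmQLFTest, R 4.3.3), with Benjamini-Hochberg adjustment over all genes and a threshold of 0.05. With 1 control, the fit takes its spread from the knockdown pair. Exon lengths and overlaps came from GENCODE release 29 and promoter windows from RefSeq. DESeq2 1.42.0, other filters, scalings and prior counts, summed related rows and each knockdown library alone were alternatives. The test was first run on simulated counts whose spread between libraries was set far below that fitted here (common dispersion 0.105). That run therefore does not show how the test performs on these data. Members and lists were chosen with earlier results of these data known. Test values are given for at most 2 genes of a group, and pathway genes are named, at most 3 of a list, by the largest mean change among genes averaging 100 counts or more, besides CCT8 and CCT6B.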

Additional observations from a re-analysis of the deposited data

How the results depend on the processing

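No member passed the threshold under any setting run, with 3 members at an unadjusted p under 0.05 in each edgeR setting and 2 by DESeq2. Over all genes the count of 3 became 70 with no filter on low counts, 1 with a minimum mean of 100 counts, 9 with library totals only and 13 with DESeq2, and the cause was not tested. The 3 members at least 1.5-fold higher in both knockdown libraries became 6 with library totals only, where AHSA1, FKBP4 and HSPH1 were added. With only 1 knockdown library, a value with no test, 5 (library 1) to 9 (library 2) members were 1.5-fold higher and 2 to 4 were 1.5-fold lower, and the median change over members ranged from 0.06 to 0.20. With library totals only, STIP1, PTGES3, CHORDC1 and TRAP1 changed the position of the control, and 11 members moved by more than their spread, as did 3 with a minimum mean of 100 counts and 1 with no filter. Summing related rows placed the control lowest for HSPA1A and HSPA1B taken as 1 gene. No paired analysis was possible because there is only 1 control library.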
